A study of Mus musculus with 54 samples.

Results

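Ribosomal protein genes encode the protein shell of the 2 ribosomal subunits, 1 set named Rpl for the large subunit and 1 named Rps for the small subunit. They were taken here as every gene whose name fits Rpl or Rps plus a number, with an optional closing a, l, x or y, together with the stalk genes Rplp0, Rplp1 and Rplp2, if it was named in the list of accessible regions of an Abelson-transformed progenitor B cell line or in the list of Fli1 peaks of wild-type (Wt) progenitors. The rule found 73 genes, 45 of the large and 28 of the small subunit, of 16039 genes named in the accessible list. Of the 73, 66 were named in the accessible list, 65 in the Fli1 list and 58 in both.

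The study compared chromatin in B-lymphocyte progenitors of the mouse. Accessible regions came from 1 ATAC-seq list for 2 samples of the cell line 230-238, an established Abelson-transformed progenitor B line, and promoter contacts from 1 PLAC-seq list for 2 samples of the same line. Fli1 and Ikzf1 peaks came from 1 ChIP-seq library each of Wt fetal liver cells labelled pro-B, grown on OP9 stroma cells in IL-7 together with the ligands of KIT and FLT3, and 1 input library served both. The region tables held the same kind of cultured fetal liver cells of the genotypes Wt, Ebf1-KO and E2A-KO, and Ebf1-KO cells carrying a pMiG-Ebf1ER vector after 0, 6, 24 and 72 h of 4OHT. Ages were not given in the sources used here, and nothing says whether samples came from separate animals or cultures. Because each list or column stands for a whole group, no value below carries a replicate error, no test across replicates could be made, and comparisons describe these lists. Intervals are 95% Wilson intervals of a share or order-statistic intervals of a median over genes, which hold the spread over genes and not the spread between cultures.

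In the accessible list 8 of 10 B-lineage marker genes (Cd79a, Cd79b, Vpreb1, Igll1, Pax5, Ebf1, Rag1 and Rag2) had a promoter peak. Of 12 genes of other lineages, Cd3g, Klrd1 and Gata1 had one. Since the factor peaks were read in another cell population than the accessible regions, every overlap below joins the line with primary progenitors.

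Every cell that grows needs ribosomes, and ribosomal protein genes are among the most highly transcribed genes of proliferating cells. Many of their transcripts begin with a TOP tract, a C followed by a run of pyrimidines at the start site, through which mTOR signalling controls their translation. Fli1 belongs to the ETS family of transcription factors, which bind a GGAA core, and acts in blood stem cells, megakaryocytes and early lymphocytes. Ikzf1 (Ikaros) is a zinc finger factor needed for lymphocyte development. PLAC-seq joins chromatin contact mapping with an immunoprecipitation, here of H3K4me3, the histone mark of active promoters, so it lists contacts of chromatin that carries this mark.

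Promoter sequences are shown for 8 members, those with high peak scores and some without a Fli1 peak, so that both can be read side by side. They were read from RefSeq windows on mm10 (GRCm38.p6) and run from 110 bases before the start site to 20 bases of the transcript, 130 bases each, on the gene's strand. Capitals mark CCGGAA (the ETS letters searched) or its reverse complement, TGGGAA (Ikzf1), AAGATGG (YY1) and TATAAA on either strand, and a TOP tract. Rps19, Rplp2, Rpl11 and Rps26 had the highest Fli1 scores among the members whose windows were eligible to be shown, and Rps19, Rplp2 and Rpl19 the highest Ikzf1 scores.
Rps19, chr7:24884482-24884611, plus strand: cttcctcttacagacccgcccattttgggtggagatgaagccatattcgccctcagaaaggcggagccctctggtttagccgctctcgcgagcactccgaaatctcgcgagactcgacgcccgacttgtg
Rplp2, chr7:141447541-141447670, plus strand: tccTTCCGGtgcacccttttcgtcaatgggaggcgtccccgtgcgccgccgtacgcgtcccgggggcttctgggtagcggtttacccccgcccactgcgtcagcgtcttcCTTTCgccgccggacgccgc
Rpl11, chr4:136053374-136053503, minus strand: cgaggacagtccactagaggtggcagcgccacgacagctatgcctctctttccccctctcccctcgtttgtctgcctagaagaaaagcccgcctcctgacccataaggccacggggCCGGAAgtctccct
Rps26, chr10:128626487-128626616, minus strand: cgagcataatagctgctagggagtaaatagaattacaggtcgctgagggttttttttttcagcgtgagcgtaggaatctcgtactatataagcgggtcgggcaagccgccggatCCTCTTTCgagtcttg
Rpl19, chr11:98026600-98026729, plus strand: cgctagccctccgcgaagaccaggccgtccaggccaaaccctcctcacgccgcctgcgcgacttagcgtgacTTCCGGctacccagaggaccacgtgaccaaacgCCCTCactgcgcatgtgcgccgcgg
The other 3 are the first in the alphabet, among members with a window, that had an accessible start site and no Fli1 peak.
Rpl35, chr2:39005112-39005241, minus strand: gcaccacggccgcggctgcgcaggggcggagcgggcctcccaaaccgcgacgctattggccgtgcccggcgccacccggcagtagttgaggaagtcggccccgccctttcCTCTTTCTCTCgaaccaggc
Rpl3l, chr17:24732575-24732704, plus strand: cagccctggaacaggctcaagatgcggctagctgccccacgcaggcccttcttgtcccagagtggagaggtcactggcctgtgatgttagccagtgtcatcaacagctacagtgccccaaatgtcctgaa
Rpl41, chr10:128549149-128549278, minus strand: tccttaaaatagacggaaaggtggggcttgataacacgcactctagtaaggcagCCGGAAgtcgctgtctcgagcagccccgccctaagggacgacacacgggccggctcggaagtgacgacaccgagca

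Of the 73 genes, 42 had a peak that the authors' annotation calls promoter-TSS under the gene's own name. Another 19 had a peak whose centre lay within 500 bp of the start site, 111 to 342 bp downstream of it, and 14 of these peaks were annotated as intron. A further 11 had their start site inside a peak that the list gives to another gene or to none. For Rpl23a that name was a small nucleolar RNA hosted in the gene, Snord42b, for Rpl7a it was Med22, for Rps28 Ndufa7, for Rpl34 Rpl34-ps1 and for Rpl26 Gm15772. The peaks of Rps19, Rpl10a, Rps21, Rps24 and Rps27l carried no gene name.

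The remaining gene was Rps4l, for which the list held no peak at a start site. Thus 72 of 73 members had an accessible peak at the start site. The list names a gene only when that gene is nearest to some peak, so being named made an accessible peak near the gene likely for most members. Start sites could be placed for 69 of the 72, 52 of them from RefSeq promoter windows and the rest from the listed peak distance and the gene's end, and all 69 lay inside the peak taken for the gene. Over the whole RefSeq promoter table, 35.1% of 27025 genes had a start site inside an accessible peak, but these genes were not chosen by being named in a list, so nothing is read from the difference. Among genes whose names fit the rule but appear in neither list, Rpl10l, Rpl32l and Rpl39l had no accessible peak at the start site.

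The members' peaks resembled those of other promoters in size and place. Over the 42 annotated promoters the median width was 1062 bp, against 1041 bp for the 6087 other genes with an annotated accessible promoter. The quartiles ran from 846 to 1194 bp for members and from 653 to 1308 bp for the others. Peak centres lay at a median of -18.5 bp from the start site in members and -33 bp in the others. Widths ranged among the 72 from 207 bp at Rpl19 to 1710 bp at Rpl10a. Rpl19, a core protein of the large subunit, was among the members with most contacts (below). The list holds another Rpl19 peak just downstream (chr11:98026882-98027418), so 207 bp is the width of an entry and not of the whole open stretch. The list gives no peak height (its score column is 0 throughout), so how strongly these promoters were open could not be compared.

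**Figure D1:**
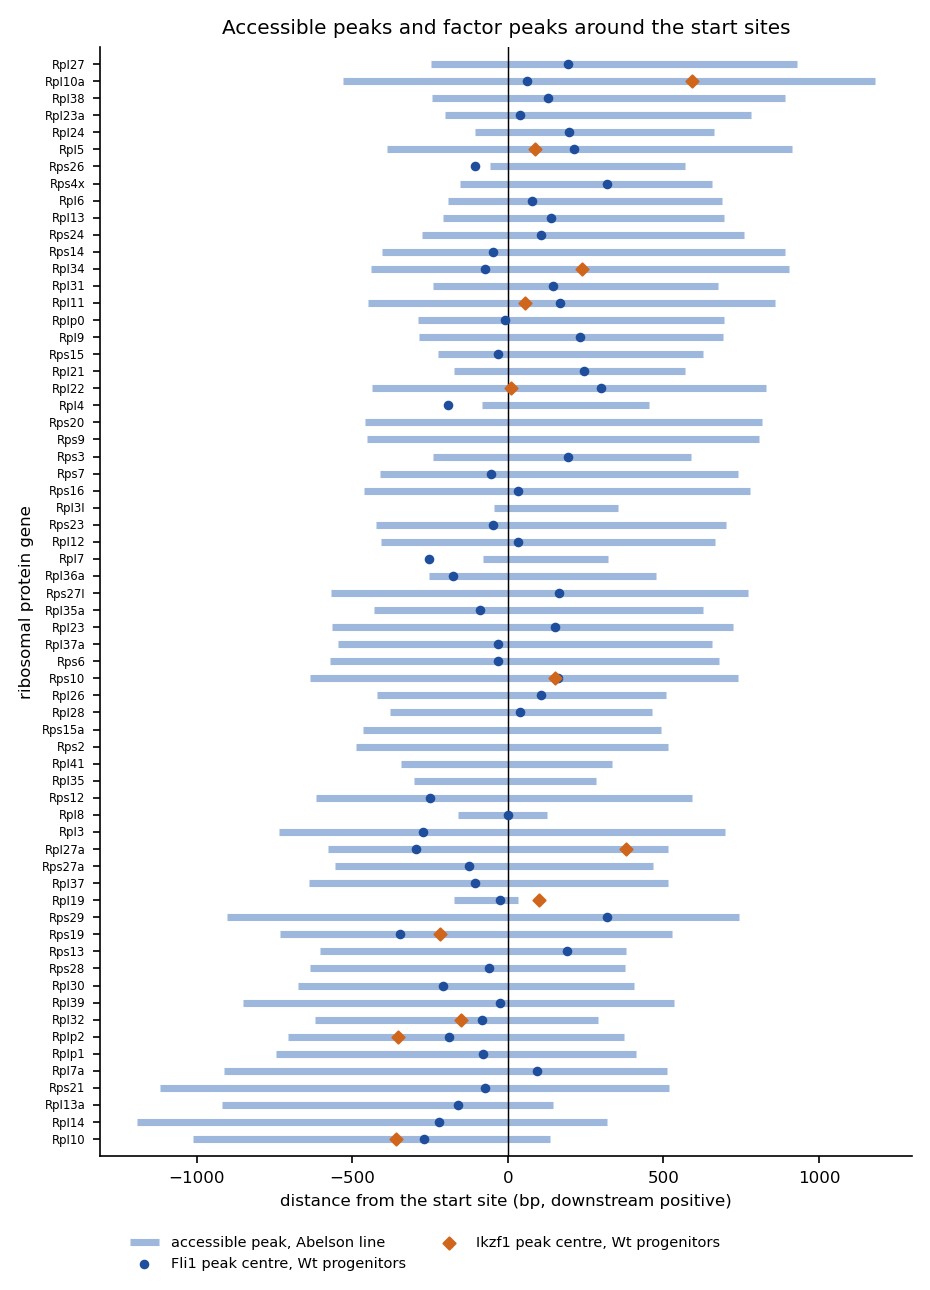
Accessible peaks (pale bars, cell line) and the centres of Fli1 (circles) and Ikzf1 (diamonds) peaks (Wt progenitors) in bp from the start site, drawn for 64 members with a placed start site and sorted by the centre of the accessible peak. Every bar crosses the start site, and Fli1 centres lie between -346 and 318 bp.

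Fli1 peaks covered most of these promoters. At annotated promoters 34 of 42 members, 81.0% (66.7–90.0%), were overlapped by at least 1 bp of a Fli1 peak, beside 64.7% of the 6087 other genes. With the peak centred nearest the start site for every member, 63 of 72 had a Fli1 peak, 87.5%. That count is no independent measure, because 7 of the 63 (Rps19, Rpl7a, Rpl10a, Rpl23a, Rps21, Rps24 and Rps28) are members only through a Fli1 peak that carries their name. The annotated promoters hold none of these 7. In the set of peaks centred within 500 bp of a start the share was 85.2% of 61 members beside 74.7% of 8573 other genes. Rpl11 and Rpl38 account for the step from 34 to 36 within the 42 genes. Their peak annotated promoter-TSS was not the one nearest the start site and had no Fli1 peak, while the nearest one had.

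The shares moved with the width of the accessible peak. Among annotated promoters of 1200 bp or more, 11 of 11 members and 85.1% of 2157 other promoters had a Fli1 peak. From 800 to under 1200 bp it was 18 of 22 members (81.8%) and 76.4% of 1996 others. Under 800 bp it was 5 of 9 members (55.6%) and 30.0% of 1934 others, so the difference was widest among narrow peaks, where the members were fewest. The part of peak width in the result was not tested beyond these strata.

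Other housekeeping families stood close to the ribosomal protein genes. At annotated promoters a Fli1 peak was found for 84.4% (68.2–93.1%) of 32 mitochondrial ribosomal protein genes and for 85.4% (71.6–93.1%) of 41 oxidative phosphorylation genes. The shares were 77.4% (60.2–88.6%) of 31 translation factor genes and 72% (52.4–85.7%) of 25 proteasome genes. All of these intervals hold the members' 81.0%.

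**Figure D2:**
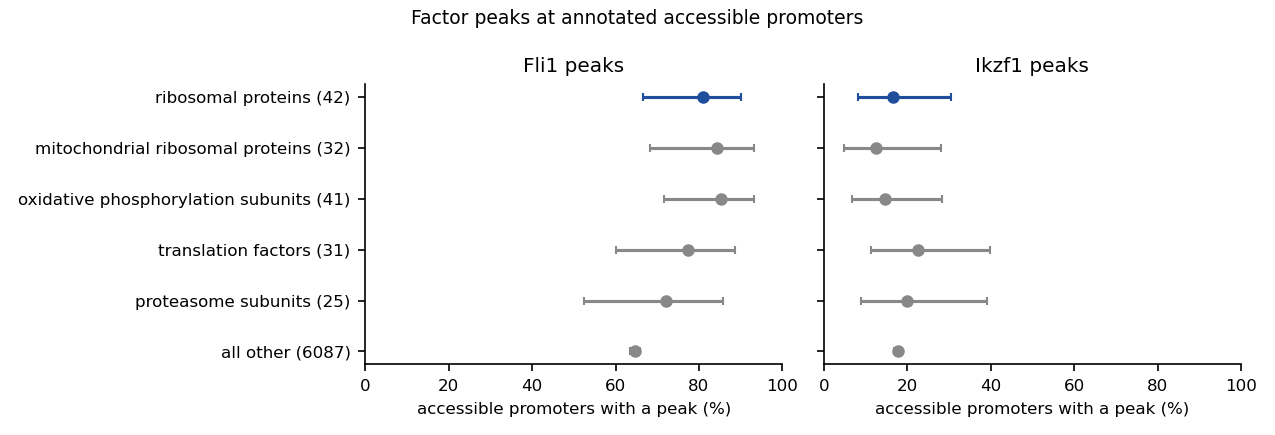
Share of annotated accessible promoters with a Fli1 peak (left) and an Ikzf1 peak (right) in percent, by gene family, with the number of genes in brackets and 95% Wilson intervals as bars. For Fli1 the members' 81.0% lies above the 64.7% of all other promoters and among the 4 families, and for Ikzf1 the members' 16.7% lies near the 17.8% of all others.

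The scores of the authors' peak caller, which rank peaks within the list, spread from 12.4 to 85.8 over the 63 members with a peak, with a median of 28.1. Over the whole list of 27261 Fli1 peaks, distant ones included, the median was 16.7, and 58 of the 63 were at or above it. At annotated promoters with a Fli1 peak, 31 of 34 members and 3131 of 3941 others were at or above it. At annotated promoters the members' median was 28.35 (23.8–40.5), against 24.3 (24.3–24.8) over the other promoters with a peak, where the highest score was 140.5. The families had medians from 25.3 (mitochondrial ribosomal proteins and proteasome) to 28.6 (oxidative phosphorylation). The interval of the members' median held the family medians and, near its lower end, the 24.3 of other promoters.

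The highest Fli1 score belonged to Rps19, the gene most often mutated in Diamond-Blackfan anaemia, at 85.8. Its peak (chr7:24884070-24884422) was centred at -346 bp from the start site, before the run printed above, in which none of the searched letters occurred. Rplp2, 1 of the 3 proteins of the ribosomal stalk that contacts elongation factors, scored 78.6 with a peak at chr7:141447285-141447637. The ETS letters stand 107 bases upstream of its start site, within that peak. Rpl32 scored 72.9 (chr6:115808651-115809003), and Rps14, whose loss underlies the anaemia of the 5q- syndrome, scored 64.3. These 4 peaks lay at or above the percentile 99.3 of the list. They were followed by Rpl11, Rpl30 and Rps26 at 53.8 each, Rpl4 at 51.9 and Rps27a at 43.8.

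**Figure D3:**
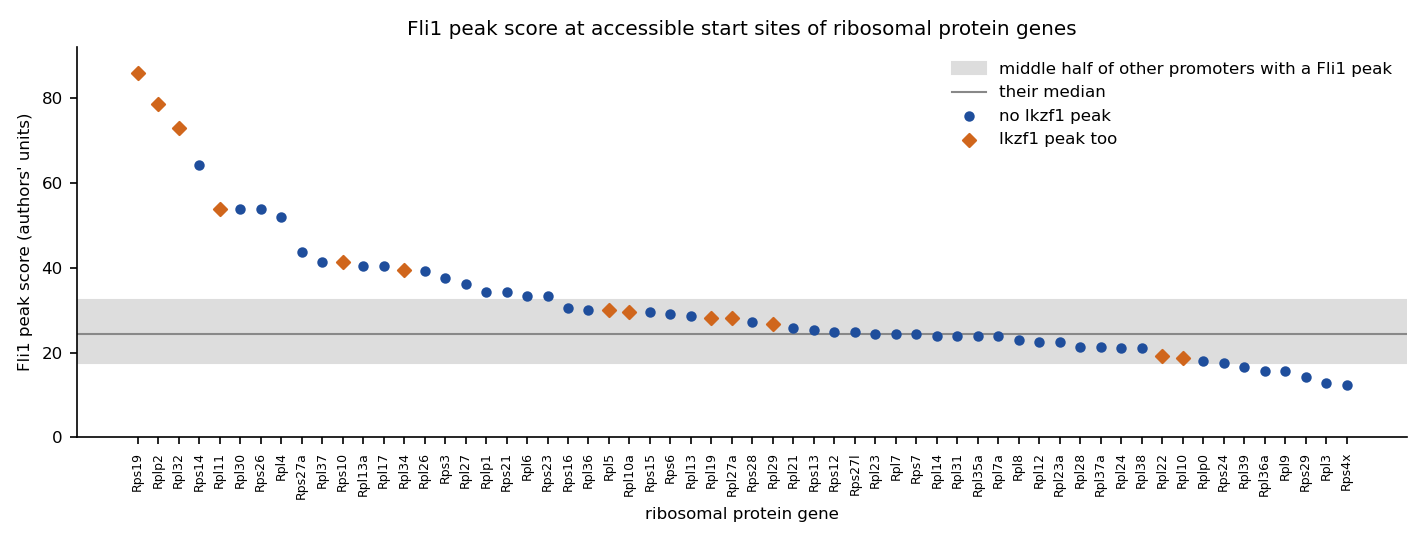
Fli1 peak score at the accessible start site for 60 members with a peak, from highest to lowest. Diamonds mark members with an Ikzf1 peak too, and the grey band and line give the interquartile range and the median (24.3) of other annotated promoters with a Fli1 peak. Rps19, Rplp2 and Rpl32, the 3 highest, carry both peaks.

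Most Fli1 peaks counted for the members were centred near the start site. Only peaks that overlap the accessible peak there were counted, so much of this nearness was set by the choice. No matching distance is given for other promoters. Among the 60 members with a placed start site and a Fli1 peak, the peak centre lay at a median of -25 bp and in 45 within 200 bp of it. Of the 117 Fli1 peaks that carry a member's name, 46 were more than 10 kb from its start site, since the list names each peak after the nearest gene. Rplp1 gave its name to 14 Fli1 peaks, among them an intergenic peak 211.9 kb downstream (chr9:61702458-61702810) with a score of 53.8, above the 34.3 at its own promoter. These distant peaks were not counted for the promoters.

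An accessible start site without a Fli1 peak was found in 9 members. Among them were Rpl35, Rpl3l, Rpl41, Rps2, Rps9, Rps15a and Rps20. Rpl3l, a muscle form of Rpl3, had the smallest interval of the 9, 399 bp, and 1 listed contact. The others encode ordinary subunits of the ribosome, among them Rps2 at the messenger entry site and Rpl41, the smallest ribosomal protein. The 9 peaks had a median width of 957 bp, against 1081 bp for the 63 with a Fli1 peak. These 9 had a median of 11 listed interactions, against 9 in members with a Fli1 peak.

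Disease genes and paralogs spread over the whole range of scores. Rpl5 and Rpl11, which with 5S RNA bind the p53 regulator Mdm2, scored 30.0 and 53.8, and Rpl23 and Rpl26, both also linked to p53 control, scored 24.3 and 39.1. Among genes mutated in Diamond-Blackfan anaemia, Rps24 scored 17.6, Rps26 53.8 and Rpl35a 23.8. Rpl10 and Rpl22, both mutated in lymphoid leukaemia, scored 18.6 and 19.1, below the 24.3 of other promoters. Rps6, the substrate of S6 kinase, scored 29.1, and Rps27a, which is made as a fusion with ubiquitin, 43.8. In the stalk, Rplp0 and Rplp1 scored 18.1 and 34.3 beside the 78.6 of Rplp2. Rps27l, a paralog induced by p53, scored 24.8.

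A Fli1 peak was present at 41 of 45 large subunit start sites (91.1%) and 22 of 27 of the small subunit (81.5%). Both counts include genes that are members only through a Fli1 peak, so they are no independent measure. These are Rpl7a, Rpl10a and Rpl23a of the large subunit, and Rps19, Rps21, Rps24 and Rps28 of the small. For other genes with a RefSeq start site inside an accessible peak the share was 77.5%. The median scores of large and small subunit genes were 25.7 and 30.0, and the difference was not tested.

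Ikzf1 peaks were uncommon at members. At annotated promoters 7 of 42 members, 16.7% (8.32–30.6%), had one, beside 17.8% of the 6087 others. Among peaks centred within 500 bp of a start the share was 16.4% of 61 members beside 19.5% of 8573. The families lay between 12.5% (mitochondrial ribosomal proteins) and 22.6% (translation factors). The median score at members was 7.05, the same as over the other promoters and over the whole list of 5741 peaks. The members were thus at the background for Ikzf1 in share and in typical score.

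A pair of members stood apart from this level. Rps19 scored 31.4 (chr7:24884282-24884466) and Rpl32 30.6 (chr6:115808801-115808985), both at the percentile 99.9 of the Ikzf1 list. Both were among the 3 members with the highest Fli1 scores, and at both genes the Ikzf1 and Fli1 peaks overlapped within the same accessible interval. The next were Rplp2 at 8.62, Rpl19 at 8.23, Rpl22 at 7.84, Rpl5 at 7.45, Rpl29 at 7.05, Rpl11 and Rps10 at 6.66, and Rpl27a at 6.27. The remaining 3 of the 13 members with an Ikzf1 peak were Rpl10 and Rpl10a at 5.88 and Rpl34 at 4.7. All 13 also had a Fli1 peak, and 11 of them were large subunit genes (24.4% of 45, against 7.41% of 27 in the small subunit). For Rps19 and Rpl10a the Fli1 peak was set by the rule, since they are members only through it. At annotated promoters all 7 members with an Ikzf1 peak had a Fli1 peak. For other genes with a RefSeq start site inside an accessible peak the Ikzf1 share was 20.8%, and the subunit difference was not tested. A Fli1 peak was present at 63 of all 72 members, and at other annotated promoters 990 of 1086 with an Ikzf1 peak had a Fli1 peak.

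The promoter windows were searched for letters that these factors are known to prefer. CCGGAA, on either strand, was found in 25 of 52 member windows (48.1%), each of 300 bases from 250 before to 50 after the start site. It was found in 31.1% of the 10916 other windows with an accessible start site and in 14.9% of all 32851 windows. Among those other windows it occurred in 39.8% of the 7129 with a Fli1 peak and 14.7% of the 3787 without. Among members the share was 47.8% of the 46 with a Fli1 peak and 3 of the 6 without. These splits are not alike. Members had a single window per gene and were split by a Fli1 peak anywhere over the accessible peak. The other windows, which can be several per gene, were split by a Fli1 peak over the 300 bases. In Rpl41 the ETS letters stand 56 bases upstream of the start site, with no Fli1 peak listed. Rps19 with the highest score has none in its window, but its Fli1 peak is centred at -346 bp, before the window begins. A match is a run of letters and not a measured site.

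The other letters were counted in the same windows. TGGGAA occurred in 21.2% of member windows and 22.3% of the other accessible ones. AAGATGG, the YY1 letters, occurred in 7 members (13.5%) and 7.83%, and TATAAA in 5 members (9.62%) and 5.84%. A TOP tract, defined as C followed by at least 4 pyrimidines beginning within 5 bases of the start site, occurred in 22 members (42.3%) against 20.0% of the other accessible windows. It spans 11 bases at Rpl35, 8 at Rps26 and 5 at Rplp2.

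**Figure D4:**
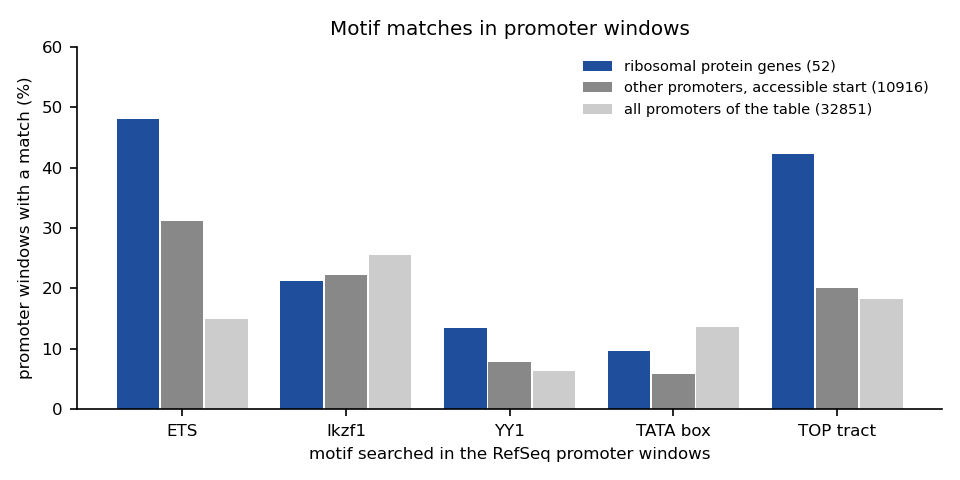
Percent of RefSeq promoter windows with a match to each motif in member genes, in other promoters with an accessible start site and in all promoters of the table, with the number of windows in brackets. The ETS letters (48.1%) and the TOP tract (42.3%) are more frequent in members than in the other windows, and the Ikzf1 letters (21.2%) are not.

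Annotated promoters of ribosomal protein genes had more listed contacts than other promoters. An interaction was counted when 1 of its 2 bins of 5 kb overlapped the accessible peak. The PLAC-seq list held 69898 interactions with a median distance of 130 kb. Annotated member promoters had a median of 12.5 (10–15) interactions, against 6 (5–6) for the 6087 others, and 41 of 42 (97.6%) had at least 1, beside 89.5%. The value 10 was chosen as a mark of many contacts after the values were seen. By it 29 of 42 members (69.0%) had at least 10 interactions, beside 24.3% of the others.

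The 4 families had lower medians. Median numbers were 7.5 (4–11) for mitochondrial ribosomal protein genes, 8 (6–10) for proteasome genes, 7 (5–10) for oxidative phosphorylation genes and 5 (3–10) for translation factors. Their shares with at least 10 interactions lay between 32.0% and 37.5%. The interval of the members' median (10–15) touched the upper ends of these intervals, and the differences were not tested.

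The size of the difference depended on which peak stood for a gene. Members with an annotated promoter had a median of 12.5 interactions with their nearest peak, those with only a peak centred downstream had 5 (19 genes), and those under another or no name 6 (11 genes). For other genes the median of annotated promoters was 6 and that of peaks centred near the start only was 5. Over all 72 members the median was 9, and 34 had at least 10. With peaks that hold a RefSeq start site it was 8 for 52 members against 6 for the other genes. The difference was thus seen in the members with a peak annotated promoter-TSS, and was smaller or absent in the others.

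Several features moved with the number of contacts and are given beside it. Among the 42 annotated members 30 (71.4%) had no other promoter peak in their bins, against 81.7% of other promoters, and in these the medians were 12 and 5. The number of accessible promoter peaks within 250 kb had a median of 5 in both groups. Where it was 0 to 9, members had a median of 12 (30 genes) and others 5. From 10 to 19 the medians were 11 (8 genes) and 7, and from 20 upward 17.5 (4 genes) and 8. The lowest of these classes holds 4841 of the 6087 other promoters, so it is no gene-poor subset, and the part of promoter density in the difference was not tested. H3K4me3 at the member promoters was not analysed here, and its part in the number of listed contacts was not tested.

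**Figure D5:**
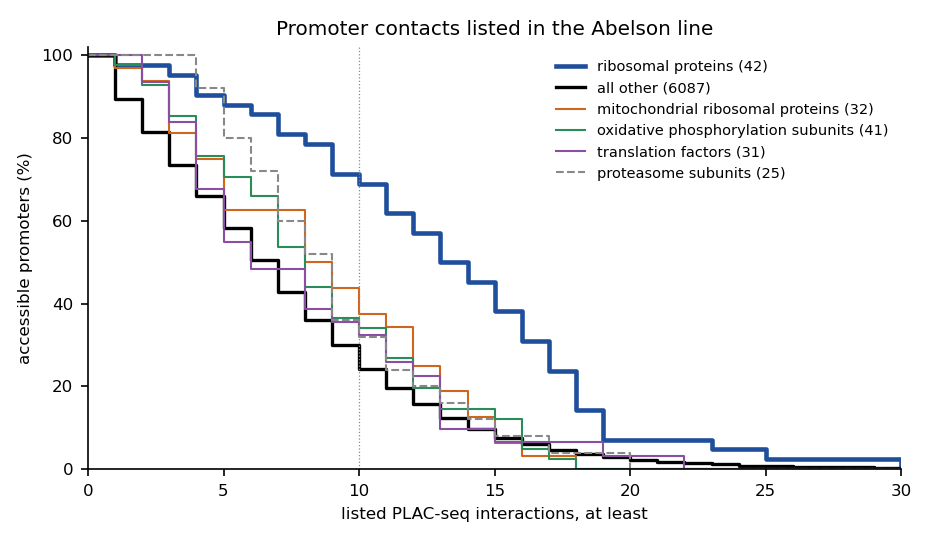
Percent of annotated accessible promoters with at least the number of listed interactions on the x axis, for member genes (thick blue), all other genes (black) and 4 housekeeping families, with the number of genes in brackets. The dotted line marks 10 interactions, which 69.0% of members and 24.3% of all others reached. The axis ends at 30, and some other promoters have more.

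Rps27a had the most contacts, 29 interactions over a median distance of 340 kb from its peak at chr11:29547575-29548595. Of these, 4 reached bins with a promoter peak, 9 bins with another accessible peak and 16 bins with none. Also among the members with most contacts was Rpl13 with 22. Rpl41, Rps2 and Rps3, the last also known in DNA repair, had 18 each. Rpl19, Rpl23 and Rps26 had 17 each. Of these genes, Rpl41 and Rps2 had no Fli1 peak. At the low end Rplp2, with the second highest Fli1 score, had 0 listed interactions although 15 promoter peaks lay within 250 kb. Over the 63 members with a Fli1 peak the rank correlation between score and number of interactions was 0.13, given as a description across genes.

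At annotated promoters, listed contacts reached farther from members than from other genes. The median over promoters of each promoter's median distance was 170 kb in members and 120 kb in the others, while the median contact count per interaction was 19 and 18. The 4 families had 95 to 128.8 kb. With peaks that hold a RefSeq start site it was 155 kb in members and 125 kb in other genes. The families then had 105 to 156.2 kb, the highest in oxidative phosphorylation genes. The differences were not tested. Rpl37 was the farthest reaching, with a median of 1070 kb over 13 interactions. The strongest single contact by count was that of Rpl6 with a bin 10 kb away (168 contacts, q = 0.011). Rps16 had 131 contacts at 20 kb with a bin that holds the Plekhg2 promoter (q = 2.2e-18).

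The far ends were sorted into 3 classes. Of 515 interactions of annotated members, 25.8% ended in a bin with a promoter peak, 35.1% in a bin with another accessible peak and 39.0% in a bin with none. For the 39403 of other promoters the shares were 22.2%, 39.8% and 38.0%, and the differences were not tested. Interactions shared between promoters of 1 bin were counted for each.

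Listed contacts lie within a chromosome, and the members are scattered over the genome. In the list 1 interaction joined start sites of 2 members, Rpl19 and Rpl23 on chromosome 11, over 245 kb with 25 contacts (q = 2.58e-07). Rpl41 and Rps26 lie 77.1 kb apart and had no listed contact with each other. Over all members 691 different interactions gave the summed count of 708, since members that overlap the same bin share interactions. Bins in contact with Rps2 held the promoters of Traf7, E4f1 and Tbl3.

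Genes of the ribosome outside the name rule had Fli1 scores within the range of the members. Of the fixed list, Rpsa scored 37.6 for Fli1, Fau 25.7, Rps3a1 30.0, Rack1 60.0, Rpl22l1 21 and Rpl36al 41.4, and all 6 had their start site in an accessible peak. Their numbers of interactions were 8, 6, 6, 15, 1 and 6. Only Rack1 was above the annotated members' median of 12.5, and the median of other annotated promoters was 6. A further 5 genes whose names fit the rule appear in neither list under those names, although their RefSeq start sites lie in accessible peaks: Rpl15, Rpl18, Rps18, Rps25 and Rps27. They scored 28.1, 37.6, 46.7, 30.5 and 59.1 for Fli1 and had 5, 23, 10, 14 and 13 interactions. Their values lie within the range of the members, although the naming of peaks kept them out of the rule.

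The region tables held no ribosomal protein promoter. Their values are tags per 10000000 tags of a library, for regions chosen by the authors, and 0 of these regions overlapped an accessible start site of a member. In the accessibility table of E2A-KO and Wt, 8 regions carried the name Rpl11, Rpl34 or Rps20 and lay 13422 to 164041 bp from its start site. Of these 8, 1 was at least 2-fold lower in E2A-KO (37.9% of 4983 regions were) and 1 at least 2-fold higher (0.983%), on the log2 scale of value plus 1. The median log2 ratio over all regions was -0.76 on this scale and 0.017 after TMM scaling, so changes are given beside that shift. The header of the Wt column names a pool of 6 libraries with a set fragment size, where 3 Wt samples are labelled, and the E2A-KO header names 3 libraries with mitochondrial reads removed. The part of this difference in the ratios was not tested. These regions are named by distance alone, and none is a measure of the ribosomal protein gene itself.

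Upstream of Rpl11 an intergenic region at chr4:136088437-136090129, listed as Ebf1-bound and open in both Wt and Ebf1-KO, held 25.65 tags (22.37–29.27) in E2A-KO and 76.15 (71.85–80.64) in Wt. This was 2.97-fold (2.57–3.44) lower, with exact Poisson and conditional intervals for counting error only. The log2 ratio was -1.53, and -0.65 after TMM scaling, which is under 2-fold. In Ebf1-KO against Wt its polymerase II signal was 24.97 against 93.26, and EP300, a histone acetyltransferase, was 26.32 against 85.92. After TMM scaling the log2 ratios of these were -1.33 and -1.30. Lower values in Ebf1-KO were common in these tables. For polymerase II 1505 of 3764 regions were at least 2-fold lower, and for EP300 433 of 1172. The median log2 ratios over all regions were -0.68 and -0.56, and -0.01 and -0.08 after TMM scaling. H3K4me2 at this Rpl11 region was 110.54 against 134.1. In the Ebf1-KO cells with the Ebf1ER vector its accessibility was 24.53 tags at 0 h of 4OHT, 36.88 at 6 h, 30.59 at 24 h and 32.27 at 72 h. The log2 ratio to 0 h was 0.57, 0.31 and 0.38 at the later times, and 0.29, -0.22 and -0.18 after TMM scaling, so its direction at 24 and 72 h depended on the scaling. It also carried a distant Fli1 peak of score 51.0 and an Ikzf1 peak of 12.1. No listed interaction joined this region with the Rpl11 start site. A nearer pair of regions, at chr4:136069970-136070506 and chr4:136070638-136071858, shared a listed interaction of 20 kb with the Rpl11 start site, with 62 contacts (q = 0.000133). Their tags were 8.98 against 11.44 and 14.46 against 25.17 in E2A-KO and Wt. The log2 ratios of -0.32 and -0.76 turned to 0.51 and 0.10 after TMM scaling, so no direction is given for them.

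The table held 3 regions named for Rpl34. The farthest (chr3:130893805-130895074, 164041 bp away) held 20.99 tags in E2A-KO and 8.58 in Wt, 2.45-fold (1.94–3.08) higher, with a log2 ratio of 1.20, and 2.03 after TMM scaling. Another (chr3:130831806-130832228) held 1.52 and 3.25 tags, with a log2 ratio of -0.75, and -0.13 after TMM scaling. The last (chr3:130864823-130865083) held 2.68 and 1.69, with a log2 ratio of 0.45, and 1.06 after TMM scaling. Both of these regions held few tags, so no direction is given for them. At the farthest region H3K4me3 was 25.19 in Ebf1-KO against 3.52 in Wt and polymerase II 29.07 against 4.29. Of 3764 regions, 15.5% were at least 2-fold higher in Ebf1-KO for H3K4me3 and 7.04% for polymerase II. The Rps20 region (chr4:3817823-3818068) held 2.45 and 3.45 tags in E2A-KO and Wt, with overlapping intervals.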

How the data were processed

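Peaks and regions were used as deposited, on mm10. Among the tools in the submitters' processing notes are HOMER 4.10, Bowtie2 2.3.5, HiC-Pro 2.11.1 and MACS2, with no roles given. Fli1 and Ikzf1 peaks carry a score of the authors' peak caller, called against input per the file headers. The PLAC-seq list holds contact counts of 5 kb bins and q-values up to 0.05, as deposited. The signal in the region tables is, per the file headers, tags at a library size set by the authors to 10000000. Another 2 columns of per-sample values matched no labelled sample and stayed out.

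The promoter of a gene was the promoter-TSS peak nearest its start site. For values of single members, the peak centred nearest the start site was taken. Overlaps needed 1 bp. Shares, medians and intervals were computed in Python 3.11.15 with SciPy 1.17.1, and TMM factors with edgeR 4.0.16. The code was tested on simulated data. Tags were recovered from the library totals in the headers.

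Named genes were the 10 highest by Fli1 score, Ikzf1 score and interactions, members without a peak, members in the region tables, and lists by role. Sequences skipped genes with no RefSeq window and chromosome 18. Results for a few members are not reported here. Members and lists were chosen with earlier results of these data known.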

Additional observations from a re-analysis of the deposited data

How the results depend on the processing

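No paired analysis was possible because every group was a single list or column, without replicate values. For the same reason no replicate was left out. Of 155 alternative values, 117 stayed within the interval of the value reported or, for numbers of genes, which have no interval, within 1.5 times of it, and 38 moved beyond that. The 117 include region values kept because the larger value was at least 20 tags. These repeat the reported value and could not move, so they say nothing about stability. The members' Fli1 and Ikzf1 shares stayed within their intervals under the alternatives run. The Fli1 share of other promoters, 64.7%, was 62.5% with an overlap of at least 0.5 of the shorter peak, 53.2% by gene name, 51.4% for scores at or above the list median and 60.0% over every promoter peak. It was 74.7% with peaks centred within 500 bp and 77.5% with RefSeq start sites, both chosen after seeing the data, and their median score was 23.8 in both. The Ikzf1 share of other promoters, 17.8%, was 14.3% by name, 10.0% for scores at or above the median, 16.6% over every promoter peak, 19.5% within 500 bp and 20.8% with RefSeq start sites. The median number of interactions fell in members from 12.5 to 9 with q of at most 0.01 and to 8 with RefSeq start sites. In other promoters it fell from 6 to 4 with that q and to 4 for distances of at least 50 kb. Their share with at least 1 interaction, 89.5%, was 83.9% with that q, 87.9% for the bin of the peak centre and 85.7% from 50 kb. Accessible members numbered 42 by annotation and 72 in any of the 3 ways. The causes of these moves were not tested.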
